A study of Mus musculus with 2 samples.

Results

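The 5 genes described here encode the motor and a light chain of the myosin of skeletal muscle: the heavy chains Myh1, Myh2, Myh4 and Myh7 and the light chain Myl1. They were found by exact gene symbol in the authors' deposited table of an array experiment on mouse groin fat, which holds 869 probes (transcript clusters), and each stood on 1 probe. They are 5 of the 800 genes that the table names by a single symbol, on an array of 35556 probes. Gene names were taken from that table alone, and it lists only probes about 1.5-fold or more higher in H4-TG, so the direction of every difference below was fixed by the choice of genes. A further 669 probes at least 1.5-fold higher were outside it, 22 of them at least 4-fold. They have no name here, so control probes of the array could not be told from probes of genes. Shares and percentiles over all probes include any such controls. A gene that was not listed has no value here and may still be higher. Male mice about 8 weeks old, in 2 groups, fed chow and kept at room temperature, were compared: wild-type (WT) mice and transgenic mice labelled H4-TG. The sources used here do not give the meaning of H4, the promoter of the transgene or the strain. RNA of 4 animals of a genotype was pooled for 1 array, so the series has 1 WT array and 1 H4-TG array. There is thus no spread between replicates, no test was run, and precision is limited by the number of arrays. More muscle cells in a pool and more RNA per cell cannot be told apart in such data.

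Muscle myosin is a motor of paired heavy chains, which hydrolyse ATP and pull on actin, each carrying an essential and a regulatory light chain at its neck. The heavy chain largely sets the speed of a fibre. Myh7 is the chain of slow, oxidative fibres and of the heart ventricle, Myh2 that of fast oxidative IIa fibres, Myh1 that of IIx fibres and Myh4 that of the fastest, glycolytic IIb fibres. Myl1 encodes the essential light chains of fast fibres. All are products of striated muscle. The defining genes of fat cells (Adipoq, Fabp4, Plin1, Lep, Cidec and Retn) served as a check of the tissue. Of those 6, 0 stood in the authors' table, so they have no value here and the tissue label could not be checked by them.

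The promoter windows of the 5 genes are shown because Myh2, Myh1 and Myh4 lie next to each other in 1 gene cluster and differed most between the arrays. The windows run from 250 bases before the annotated start through 50 bases from it on, are read 5′ to 3′ on the strand of the gene, and come from RefSeq on GRCm38.p6. All 5 genes matched the RefSeq table by symbol. In the lines below, capitals mark TATAAA on the gene's strand and a run of 20 bases that the windows of Myh1, Myh2 and Myh4 share.
Myh1, chr11:67199852-67200151, plus strand: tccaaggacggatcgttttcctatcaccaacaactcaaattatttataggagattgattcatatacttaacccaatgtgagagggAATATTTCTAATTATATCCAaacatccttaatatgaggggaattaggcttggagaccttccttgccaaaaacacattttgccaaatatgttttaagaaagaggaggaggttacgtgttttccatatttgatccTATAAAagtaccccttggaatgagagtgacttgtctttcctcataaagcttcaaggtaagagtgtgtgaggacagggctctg
Myh2, chr11:67170777-67171076, plus strand: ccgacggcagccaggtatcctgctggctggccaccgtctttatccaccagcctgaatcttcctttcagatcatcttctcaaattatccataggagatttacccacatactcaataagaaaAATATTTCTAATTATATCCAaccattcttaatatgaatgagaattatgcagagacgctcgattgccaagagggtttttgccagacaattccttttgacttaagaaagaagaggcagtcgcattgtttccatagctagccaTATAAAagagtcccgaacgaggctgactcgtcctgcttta
Myh4, chr11:67237562-67237861, plus strand: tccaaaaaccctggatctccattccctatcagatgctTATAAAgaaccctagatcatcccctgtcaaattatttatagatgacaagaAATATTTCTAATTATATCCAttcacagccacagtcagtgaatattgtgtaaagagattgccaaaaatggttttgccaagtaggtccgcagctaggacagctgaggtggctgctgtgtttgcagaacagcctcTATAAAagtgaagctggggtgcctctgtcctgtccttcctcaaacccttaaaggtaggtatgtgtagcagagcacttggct
Myh7, chr14:54994577-54994876, minus strand: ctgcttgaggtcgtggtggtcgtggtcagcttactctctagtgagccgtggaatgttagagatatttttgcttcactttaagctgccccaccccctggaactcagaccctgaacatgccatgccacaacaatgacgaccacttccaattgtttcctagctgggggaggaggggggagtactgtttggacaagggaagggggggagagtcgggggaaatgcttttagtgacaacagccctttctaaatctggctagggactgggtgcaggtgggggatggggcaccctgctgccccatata
Myl1, chr1:66945007-66945306, minus strand: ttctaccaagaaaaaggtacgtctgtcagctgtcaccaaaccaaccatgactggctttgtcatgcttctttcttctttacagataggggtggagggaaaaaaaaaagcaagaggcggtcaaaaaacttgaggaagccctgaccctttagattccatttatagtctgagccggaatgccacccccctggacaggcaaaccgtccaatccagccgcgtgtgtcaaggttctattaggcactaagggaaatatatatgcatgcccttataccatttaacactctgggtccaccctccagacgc

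The 20-base run was found in the windows of 3 genes, Myh1, Myh2 and Myh4, among 32851 windows searched on both strands. It was the only run of 10 or more bases that all 3 windows shared. It begins 165 bases before the annotated start in Myh1, 130 before it in Myh2 and 163 before it in Myh4. In pairs, Myh1 and Myh2 shared a run of 21 bases, as did Myh2 and Myh4. By contrast, the longest run that any of the 3 shared with Myh7 was 9 bases, and with Myl1 it was 8 bases. This run was looked for after the sequences were seen.

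TATAAA, the core of a TATA box, stood 32 bases before the annotated start in Myh1 and 31 bases before it in Myh4. In Myh2 it stood 10 bases after the annotated start. From the first base of the shared run to that of TATAAA there were 133 bases in Myh1, 140 in Myh2 and 132 in Myh4, so the spacing of the elements differed by 8 bases at most between the 3 windows. Myh4 held a further TATAAA on its strand, 213 bases before the start. Of all windows, 13.6% held TATAAA on either strand. The Myh7 window had no match, and the Myl1 window had 1 on the opposite strand. The annotated start of the Myl1 window lies 2876 bases inside the outer bound of the annotated gene. RefSeq gives Myh7 a further window, whose start lies 77 bases downstream.

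A MEF2 site, the A- and T-rich motif named after the muscle regulators of the MEF2 family, was matched once in Myh1 and once in Myh4, against 3.19% of all windows. Both matches overlap a TATAAA on the opposite strand. Their 10 bases are the same in the 2 genes. The closest stretch of the Myh2 window, 168 bases before its start, differs from them by T5C and T6C, with positions counted from 1 at the 5′ end of the Myh1 match, and was not a match. A CArG box, the motif of serum response factor, was matched once, in Myh4, against 1.63% of all windows. CANNTG, the E-box that myogenic factors of the MyoD family can bind, was matched 3 times in Myh4, in none of Myh1 and Myh2, 2 times in Myh7 and once in Myl1, and 72.3% of all windows hold it. GATAAG was matched in none of the 5 genes and stood in 7.44% of all windows. These are matches of letters in short windows and say nothing of binding.

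**Figure D1:**
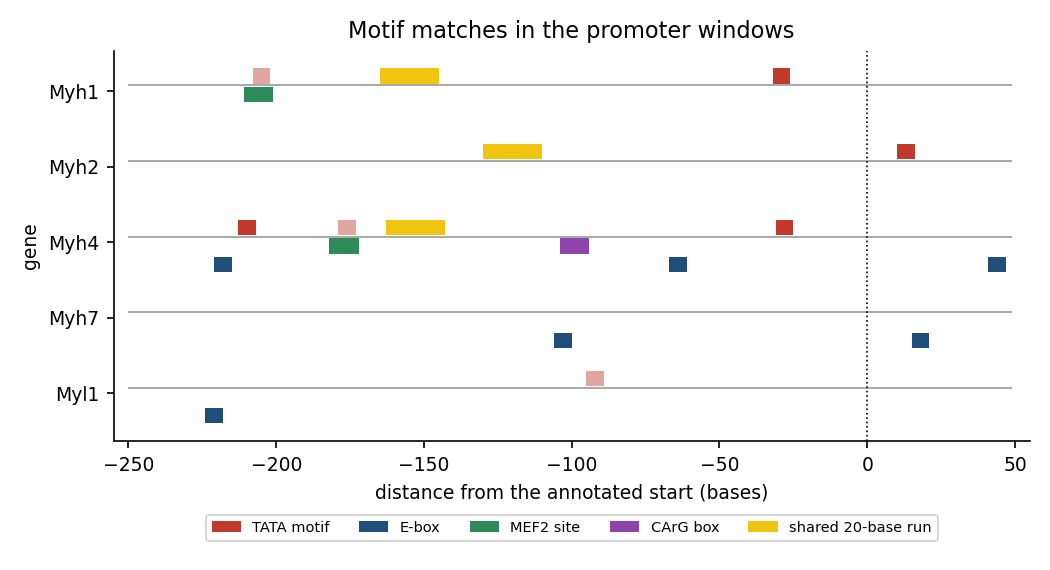
Motif matches in the promoter window of each gene (rows) by distance from the annotated start in bases (horizontal axis), with the start dotted at 0. Coloured blocks are matches, drawn paler where the match is on the opposite strand. The shared run (yellow) stands in Myh1, Myh2 and Myh4 and is followed by the TATA motif (red) 132 to 140 bases later.

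All 5 genes had a higher signal on the H4-TG array. As deposited, the 3 fast heavy chains differed most, the fast light chain Myl1 followed, and the slow chain Myh7 differed least. With 16 added to every linear signal, Myl1 (1.74) and Myh2 (1.72) changed places. At least 2-fold higher were 4 of the 5, and Myh7, at 0.99, was at the threshold: it was at 1.02 after median centring and 1.004 after quantile normalization, which made it 5 of 5. At least 4-fold higher were 3 of the 5, namely Myh4, Myh1 and Myh2. Over all 35556 probes, 4.27% were at least 1.5-fold higher, 0.892% at least 2-fold and 0.169% at least 4-fold. Among the 869 rows of the authors' table, from which the genes were taken, 16.3% were at least 2-fold and 4.37% at least 4-fold higher. The 5 genes were chosen from that table with these differences known, so nothing is read from their counts. The median log2 difference (H4-TG minus WT) over the 5 was 2.13, against -0.01 over all probes and 0.72 over the table.

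Myh4, the IIb heavy chain, had a log2 signal of 7.73 in WT and 10.64 in H4-TG. The H4-TG signal was thus higher by 2.91, which is 7.53-fold, and the probe moved from percentile 72.1 of the WT signals to percentile 97.2 of the H4-TG signals. Its probe covers chromosome 11 from 67051531 to 67073948 by the positions of the authors' table. These carry no genome build and differ from those of GRCm38. It was rank 11 in that table by the size of the difference.

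Myh1, the IIx heavy chain, had a log2 signal of 5.004 in WT and 7.84 in H4-TG. The difference was 2.84, or 7.17-fold, at rank 13 in the table. In WT the probe was dim, at percentile 27.0, and in H4-TG it was at percentile 75.4, above the upper quartile. The Myh4 and Myh1 differences were 0.07 apart, and their order turned with the treatment of background: when percentile 10 of each array's linear signal was subtracted before the logarithm, Myh1 differed by 3.46 and Myh4 by 2.99. Neither of them can be put first.

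Myh2, the IIa heavy chain, had a log2 signal of 5.10 in WT and 7.22 in H4-TG. The H4-TG array was higher by 2.13, or 4.36-fold, at rank 30. The WT signals of Myh2 and Myh1 stood at percentiles 28.5 and 27.0, so both were dim, while the Myh2 difference was smaller than that of Myh1 by 0.72 on the log2 scale.

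Myh7, the slow heavy chain, had a log2 signal of 5.63 in WT and 6.62 in H4-TG. The difference of 0.99, or 1.99-fold, was the smallest of the 5 and rank 148 in the table. Both signals lay in the middle of the array, at percentiles 37.8 and 55.4. The mean signal of Myh7 over both arrays, 6.13, was close to that of Myh2, 6.16, but the Myh2 difference was 2.13. That mean holds the change itself, and in WT Myh7 was the brighter of the 2. The probe is placed on chromosome 14, from 55589525 to 55613386.

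The median difference of the 3 fast heavy chains exceeded that of Myh7 by 1.85 on the log2 scale. This compares changes, not levels, because the signals of different probes cannot be set against each other. It ranged from 1.55, with 16 added to every linear signal, to 1.89, after centring along signal level. The fast heavy chains are alike in sequence, the sequences of the array's probes were not used here, and how far 1 chain's RNA reached another chain's probes was not tested.

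Myl1, the fast essential light chain, had the brightest probe of the 5, with a log2 signal of 9.76 in WT and 11.53 in H4-TG. The difference was 1.76, or 3.39-fold, at rank 43. In WT it already stood at percentile 93.7, and in H4-TG at percentile 98.8. Its signal was thus high on both arrays, unlike those of Myh1 and Myh2. The probe covers chromosome 1 from 66970872 to 66991606.

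**Figure D2:**
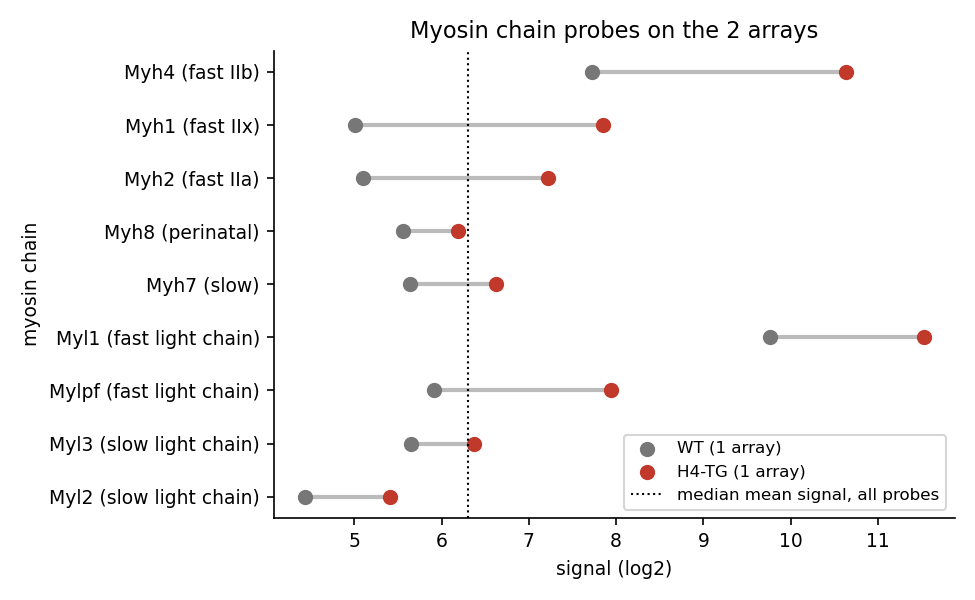
Log2 signal (horizontal axis) of the 9 myosin chain probes named in the authors' table (rows) on the WT array (grey) and the H4-TG array (red), with 1 array for each and no error, and the median mean signal of all probes, 6.31 (dotted). Myh1 goes from 5.004 to 7.84 and crosses the median, Myl1 lies above it on both arrays, and Myl2 lies below it on both.

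**Figure D3:**
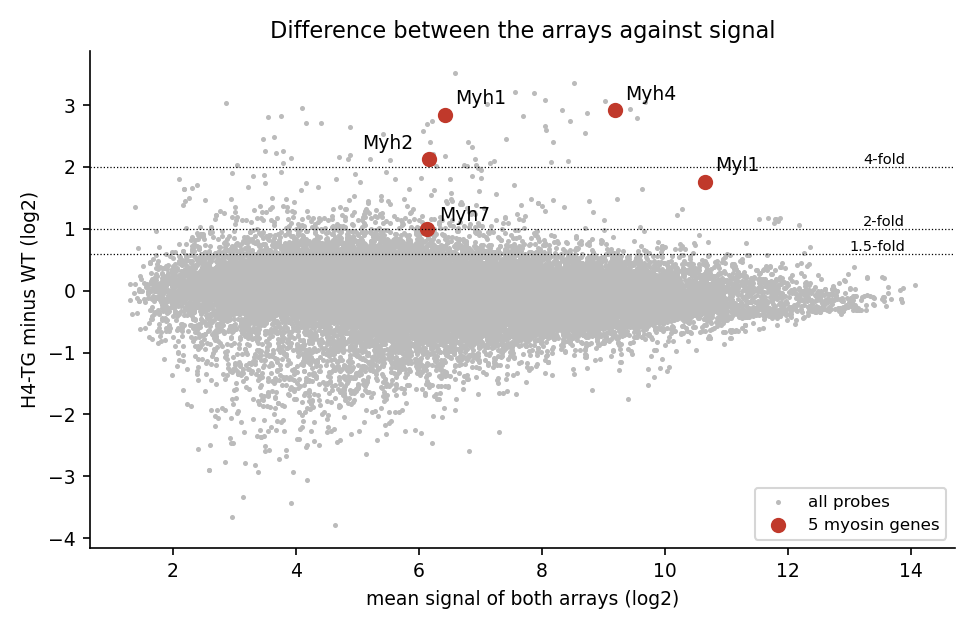
Log2 difference between the arrays (H4-TG minus WT, vertical axis) against the mean log2 signal of both arrays (horizontal axis) for 35556 probes (grey) and the 5 myosin genes (red), with dotted lines at 1.5-, 2- and 4-fold. Myh2 and Myh7 have nearly the same mean signal, 6.16 and 6.13, and lie at 2.13 and 0.99.

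The 3 fast heavy chain genes lie side by side on chromosome 11 in the authors' table, in the order Myh2, Myh1, Myh4, with the perinatal chain Myh8 after them. Myh2 spans 66984568 to 67011016 and Myh1 67013604 to 67038079, with 2587 bases between them. A gap of 13451 bases follows before Myh4, and another of 16677 bases before Myh8, so the 4 genes cover 137.6 kb. The differences along this stretch were 2.13, 2.84, 2.91 and 0.63. Myh8, the chain of newborn muscle, had a log2 signal of 5.56 in WT and 6.19 in H4-TG, 1.55-fold higher and close to the limit of the table. The lowest difference in the table was 0.58, on a probe at 8.04 in WT and 8.62 in H4-TG. A probe at 4.60 in WT and 5.19 in H4-TG, with no name here, was the highest below 1.5-fold outside it, also at 0.58.

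**Figure D4:**
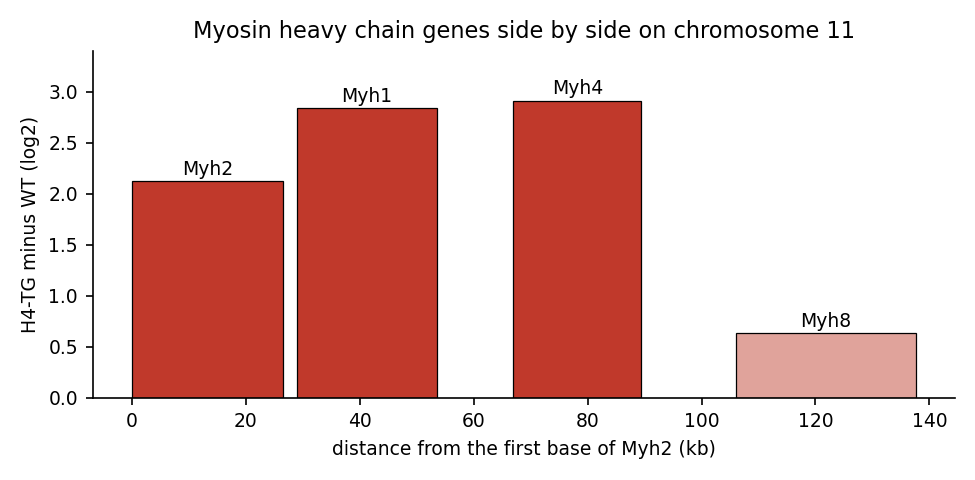
Log2 difference (H4-TG minus WT, vertical axis, bars from 0) of the 4 heavy chain genes named on chromosome 11, each bar as wide as the gene, by distance from the first base of Myh2 in kb. Myh2, Myh1 and Myh4 lie at 2.13 to 2.91 and Myh8 at 0.63.

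For the counts of genes by role here and below, 869 of the array's 35556 probes were in the table. Of all probes, 0.892% were at least 2-fold and 0.169% at least 4-fold higher. The lists of genes were drawn up with earlier results of these data known. Of the other striated heavy chains, 1 of 6 was in the table, Myh8. The embryonic chain Myh3, the atrial chain Myh6, the extraocular chain Myh13, and Myh7b and Myh15 were not listed and have no value. Smooth and non-muscle heavy chains were listed in 0 of 4 cases (Myh9, Myh10, Myh11 and Myh14). Of the other light chains, 3 of 11 were listed and 1 was at least 2-fold higher. That was Mylpf, the fast regulatory light chain, with 5.91 in WT and 7.95 in H4-TG, or 4.09-fold. The slow and ventricular chains Myl2 (4.44 and 5.40, 1.95-fold) and Myl3 (5.65 and 6.37, 1.64-fold) were less than 2-fold higher. Myl2 was above 2-fold, at a log2 difference of 1.68, when percentile 10 was subtracted, while Myl3 was at 0.89. In WT the Myl2 signal stood at percentile 18.8, close to the level subtracted. As deposited, both fast light chains had a larger difference than both slow ones.

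Among enzymes and helpers of myosin, 4 of 11 were listed, all of them at least 2-fold higher. Mylk4, a kinase of the myosin light chain kinase family, went from 4.77 to 7.35, or 6.01-fold. Mylk2, the skeletal kinase that phosphorylates the regulatory light chain, was 2.63-fold higher (5.99 and 7.39). Trim63, a ubiquitin ligase that marks myosin for breakdown, was 2.72-fold higher (4.77 and 6.22). Smyd1, needed for myosin assembly in striated muscle, was 2.02-fold higher (5.50 and 6.51). The myosin chaperone Unc45b was not listed.

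The thick filament and its M-band anchor had 6 of 8 genes listed, of which 5 were at least 2-fold and 3 at least 4-fold higher, with a median log2 difference of 1.90. The fast myosin-binding protein Mybpc2 was 7.06-fold higher and the slow type Mybpc1 4.51-fold. Titin (Ttn), the giant spring along the thick filament, was 6.70-fold higher on the brightest of its 3 probes, whose log2 differences spread between 0.76 and 3.197. The M-band proteins Myom2 (3.10-fold) and Myom1 (2.22-fold) followed. Mybphl was 1.58-fold higher, and Mybph and Myom3 were not listed. For 800 genes named by 1 symbol, the median log2 difference was 0.71.

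Among the 869 rows of the authors' table, 16.3% were at least 2-fold and 4.37% at least 4-fold higher. Of the genes that work with myosin in fast fibres, 12 of 13 were listed, and Gpd1 was not. Of these 12, 11 were at least 2-fold and 8 at least 4-fold higher, with a median of 2.42. They included the parvalbumin gene Pvalb (3.35), troponin T Tnnt3 (3.06), the calcium pump Atp2a1 (3.04), actinin 3 (Actn3, 2.88), calsequestrin 1 (Casq1, 2.66), myozenin 1 (Myoz1, 2.45), troponin C Tnnc2 (2.40) and troponin I Tnni2 (2.09), all as log2 differences. The glycolytic enzymes Eno3 (1.64) and Pfkm (1.37), tropomyosin Tpm1 (1.48) and Myoz3 (0.72) were lower on that scale. Of the genes of slow fibres, 7 of 13 were listed, 4 of them at least 2-fold and 1 at least 4-fold higher, with a median of 1.22. They were tropomyosin Tpm2 (2.07), myoglobin (Mb, 1.55), actinin 2 (Actn2, 1.48), Myoz2 (1.22), troponin C Tnnc1 (0.83), troponin I Tnni1 (0.78) and the stress-responsive Ankrd2 (0.72). With percentile 10 subtracted, Tnnc1 (1.07) and Tnni1 (1.05) passed 2-fold and Myoz2 (2.43) passed 4-fold. The WT signal of Myoz2 stood at percentile 15.3, close to the level subtracted. Tpm2 and Actn2 are also found in fast fibres, and how far other genes of either list keep to 1 fibre type was not tested. Slow troponin T (Tnnt1), Atp2a2, Casq2, Pln, Tpm3 and Csrp3 were not listed.

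Fast and slow counterparts of the same protein were set side by side, in 10 pairs drawn up after the values were known. Both were listed in 7 pairs, and in all 7 the fast gene had the larger difference, by 0.65 to 1.92 on the log2 scale. The widest gap was that of Myh4 over Myh7 and the narrowest that of Mybpc2 over Mybpc1. The slow gene's probe had the lower mean signal in each pair. With percentile 10 subtracted, the fast gene was still ahead in 7 of 7 pairs, by 0.24 (Myoz1 over Myoz2) to 1.78 (Myh4 over Myh7). In the remaining 3 pairs, Tnnt3, Atp2a1 and Casq1 were listed and Tnnt1, Atp2a2 and Casq2 were not. Other pairings, not drawn up, go the other way as deposited. Myoz3 of the fast list (0.72) differed less than Myoz2 (1.22), and Tpm1 of the fast list (1.48) less than Tpm2 (2.07). The 7 of 7 thus depends on which genes were paired.

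**Figure D5:**
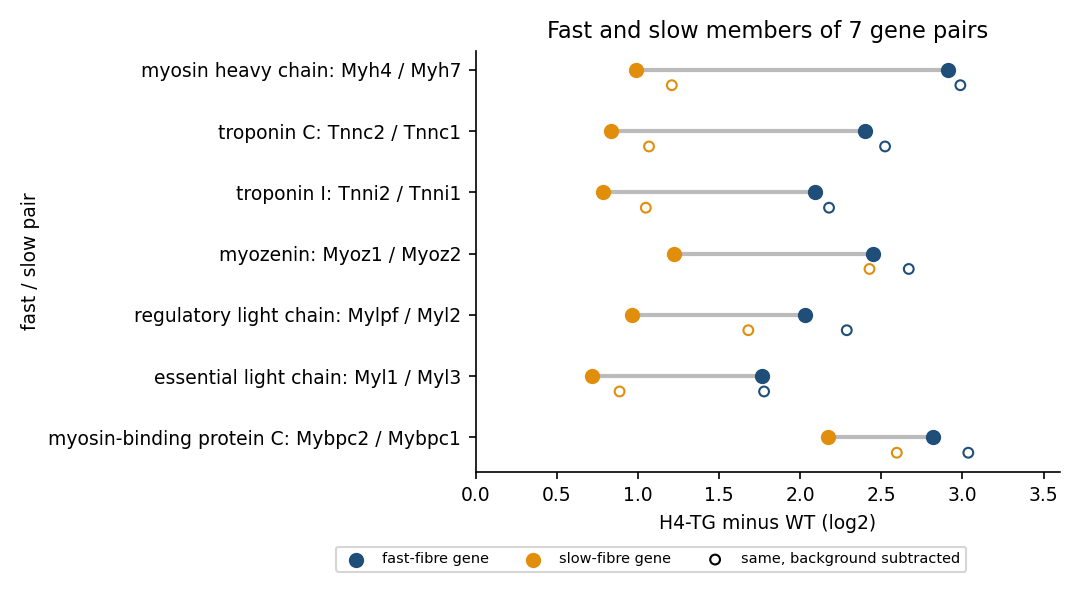
Log2 difference (H4-TG minus WT, horizontal axis) of the fast (blue) and slow (orange) gene of 7 protein pairs (rows), as deposited (filled) and with percentile 10 of each array's linear signal subtracted (open). The fast gene lies to the right in all 7 pairs, furthest in Myh4 and Myh7 (2.91 and 0.99). The pairs were chosen with the values known, and other pairings can go the other way.

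Of 17 regulators of muscle genes, 3 were in the table, which holds 869 of the array's 35556 probes. Each was below the median of all probes by its mean signal over both arrays. On the H4-TG array alone, Myod1 stood at percentile 51.3. The myogenic factor Myf6 was 2.19-fold higher (4.90 and 6.03), Myod1 1.59-fold (5.71 and 6.38) and Myog 1.57-fold (4.58 and 5.22). Mef2a, Mef2c and Mef2d were not listed, nor were Six4, Eya1, Sox6, Prox1 or Nfatc1, which act on fibre type.

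A distance between the 2 signals of a probe and those of another was used to name the listed genes nearest to each. It holds the brightness of the probes as well as the change. Only genes of the authors' table, all of them higher in H4-TG, could be named, and the rest of the array was not searched. Over the 2 arrays, the 3 genes nearest to Myh4 of 795 others by the distance between their signals (in log2 units) were Tnnt3 (0.25), Acta1 (0.36) and Ckm (0.53). Nearest to Myh1 were Xirp2 (0.43), Mybpc1 (0.47) and Klhl31 (0.53), and to Myh2 Klhl31 (0.11), Mylk4 (0.36) and Myom2 (0.37). The neighbours of Myh7 were Ddit4l (0.08), Slc38a4 (0.10) and Gm9886 (0.14). Those of Myl1 were Cox8b (0.69), Pdk4 (0.74) and Postn (0.75), none of which differed by as much as Myl1 did.

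Markers of the muscle fibre have values only where the table lists them as higher, as for the 5 genes. Of the table's rows, 4.37% were at least 4-fold higher. Of the 7 markers, 6 were in the table and 5 were at least 4-fold higher. These were Tnnt3, skeletal actin (Acta1, 2.94), muscle creatine kinase (Ckm, 2.80), Tnnc2 and Tnni2. Desmin (Des) differed by 0.77 and Tnnt1 was not listed. The summed linear signal of the 6 had a log2 of 10.31 in WT and 12.82 in H4-TG, and their log2 signals ran from 6.98 to 8.15 in WT and from 8.78 to 10.95 in H4-TG. Markers of smooth muscle (0 of 5) and heart (0 of 5) were not listed. Of the 6 markers of developing or regenerating muscle, 3 were listed, all under 2-fold: Myh8, Myog and Myod1. Of the 4 brown adipocyte markers, 1 was listed, the uncoupling protein gene Ucp1 (6.97 and 8.35, 2.60-fold), and Cidea, Prdm16 and Dio2 were not. Its part in the myosin differences was not tested. The part of muscle tissue taken with the fat in these differences was not tested, and with 1 pool per genotype the genotype and the dissection cannot be told apart.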

How the data were processed

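The authors deposited a log2 signal per probe for each array (a mouse gene array of version 1.0, per the labels) and, for 869 probes, an analysed table with rounded log2 bi-weight signals and a linear fold ratio, per the file headers. The submitters' processing notes name MAS5; how the arrays were scaled to each other is not stated there. The authors' signals lay within 0.005 of the value table. Of their rows, 822 carried 1 symbol (updated through RefSeq accession for 746, symbol for 46 and synonym for 10, with 20 unmatched) and 47 several.

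The value reported is H4-TG minus WT. A gene with several probes is represented by the brightest. Named were the 5 genes, every listed member of the role lists, and the 3 nearest genes to each. Genes, lists and pairs were chosen with earlier results of these data known. The scalings were tested on simulated data. Alternatives were median centring, quantile normalization, lowess centring (span 0.3), an offset of 16, the authors' table, the mean over probes and other fold thresholds; subtracting percentile 10 was added after seeing the data. Protein identity was planned and not run, and 2 genes of the lists are not reported here and were left out of their counts. Python 3.11.15, numpy 2.4.6, pandas 2.3.3, statsmodels 0.14.6 and matplotlib 3.10.9 were used.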

Additional observations from a re-analysis of the deposited data

How the results depend on the processing

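No array could be left out and no test was run. No paired analysis was possible because there is only 1 array for a genotype. A change of up to 0.1 on the log2 scale was taken as no change. The median over the 5 genes was 1.74 with 16 added to each linear signal and 2.65 with percentile 10 subtracted, both chosen for it after seeing the data, against 2.13 as deposited; the gap between fast and slow heavy chains was 1.55 with the offset, against 1.85. With the offset, Myh1, Myh2 and Myh7 differed by 2.35, 1.72 and 0.80, and with the subtraction by 3.46, 2.65 and 1.21. The gap of Myh4 over Myh1 was 0.07 as deposited, 0.47 with the offset and -0.48 with the subtraction, where its sign turned. Centring along signal level put Myl1 at 1.87, and the offset put it at 1.74, above Myh2. All 5 genes were at least 2-fold higher, against 4, after median centring (Myh7 1.02), quantile normalization (1.004) and the subtraction; at 4-fold there were 3 and at 1.5-fold 5. Over the listed genes at or above the median signal, the medians were 2.03 for other light chains (1 gene), 2.74 for the thick filament and 1.55 for slow fibre genes. Each gene has 1 probe in the authors' table, so the mean over probes could change nothing. Any other probe of these genes on the array has no name here. Dim probes limit Myh1, Myh2 and Myh7, whose WT signals were below the median of 6.34, and which moved most under the offset and the subtraction.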
